A study of Gallus gallus with 5 samples.

Results

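The regions described here are stretches of chick (Gallus gallus) retinal chromatin that were listed as accessible in ThrbCRM1-positive cells, were listed in no ThrbCRM1-negative library, and lie close to another region of the same kind. They were selected on the deposited interval lists themselves. The 50000 intervals with the highest fold enrichment in each of the 5 libraries were merged into 79104 regions, mitochondrial ones dropped. Of these, 2607 regions (3.3%) were overlapped by such a strong interval in all 3 positive libraries and by no interval of any rank in the 2 negative libraries (positive-only). A positive-only region was kept when its midpoint lay within 50 kb of that of another one, which left 834 clustered regions (1.05% of all regions and 32.0% of the positive-only ones) and 1773 isolated ones. Neighbours linked in this way form 363 clusters. Since a library that is left out removes a condition, the number of clustered regions rose to 1851 without negative replicate 2, 1517 without positive replicate 1 and 1326 without positive replicate 3.

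All cells came from embryonic day 5 retinas that were co-electroporated with the plasmids ThrbCRM1-GFP and CAG-Cherry, kept as explants on floating membranes for 48 h, dissociated and sorted. The positive group (ThrbCRM1+, 3 libraries) held cells with both Cherry and GFP, and the negative group (ThrbCRM1-, 2 libraries) held cells with Cherry and no GFP. Cherry shows that cells of both groups had taken up CAG-Cherry, and uptake of ThrbCRM1-GFP by each negative cell is not shown. The negative group is thus a mixture of electroporated retinal cells in which GFP was not detected. In such bulk samples, fewer cells with an accessible region and weaker accessibility per cell cannot be told apart. The sources used here do not say whether libraries of a group came from separate cultures, and p values measure only the spread between these libraries. Gene annotation of the build of the lists was not used here, so the sorted cells were not checked against marker genes, and no gene or sequence is given for a region.

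ATAC-seq reads accessibility through a transposase that inserts adapters where DNA is not wrapped tightly around nucleosomes, as at active promoters and enhancers. Enhancers of developmental genes often lie in groups along the chromosome, and several elements can act on one gene. ThrbCRM1 is itself such an element: it belongs to the thyroid hormone receptor beta gene Thrb, needs the transcription factors Otx2 and Onecut1, and is active in restricted retinal progenitor cells that give rise to cones and horizontal cells. The study asked how broadly these factors act in cone development, and the comparison with negative cells shows which regions were listed only in cells where GFP was detected.

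The lists held 71596 to 104902 unique intervals per library and no read counts, so the sequencing depth is unknown. A region missing from a list was not called there, which does not show that it was closed. Fold enrichment, the authors' ratio of the summit to the local background of the same library, is used to rank intervals within one list and to describe them. Values of several libraries are given side by side, but they are not normalized to each other. The weakest interval ranked among the 50000 had a fold enrichment of 2.67, 2.79 and 2.97 in positive replicates 1, 2 and 3 and of 2.82 and 3.22 in negative replicates 1 and 2.

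Most clusters were pairs. There were 282 clusters of 2 members, 59 of 3, 17 of 4 and 5 of 5. From the first to the last base they spanned 1007 to 123871 bp, with a median of 26306 bp. The plot of the largest clusters shows that members were spread over the span, and that 9 of the 10 largest clusters had other regions between their members.

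**Figure D1:**
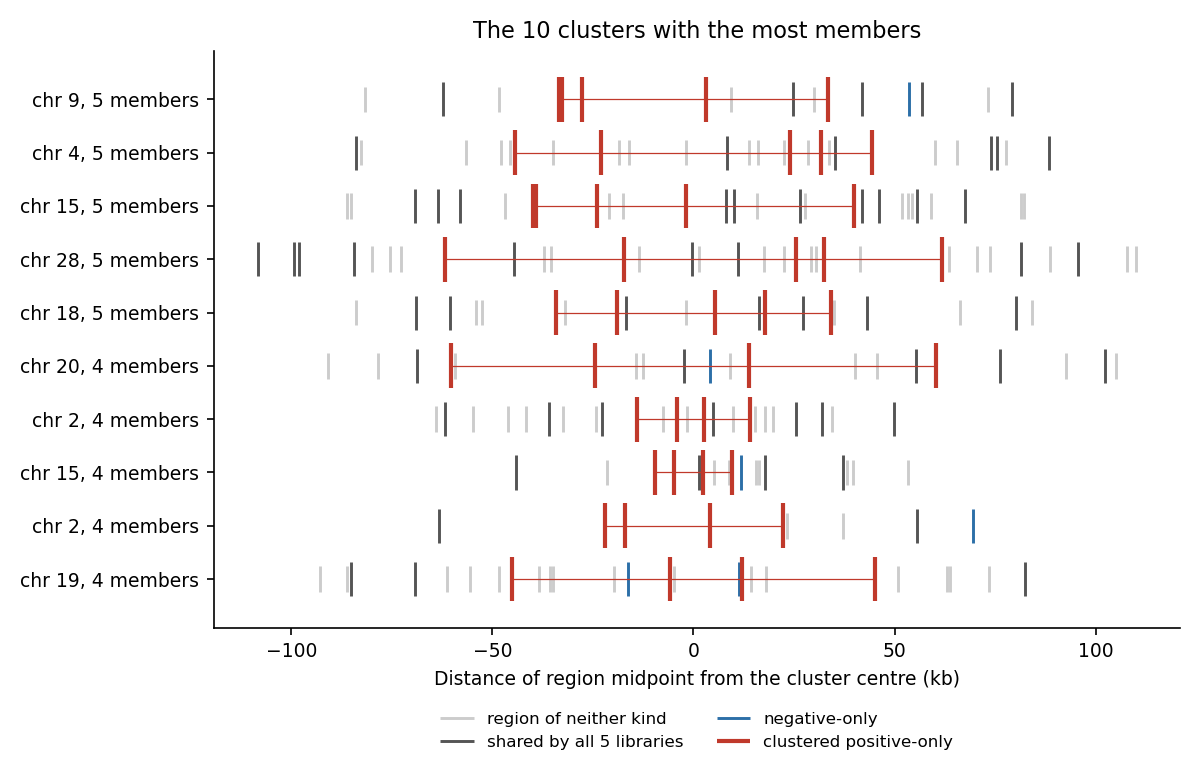
Positions of regions in the 10 clusters with the most members, 1 row per cluster, labelled by chromosome and number of members; the x axis is the distance of each region's midpoint from the cluster centre in kb, and 50 kb to either side is drawn. Red marks are clustered positive-only regions joined by a line, dark grey marks regions shared by all 5 libraries, blue marks negative-only regions and light grey marks the rest; the ninth row, on chromosome 2, holds 4 members and no other region between the first and the last.

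The 5 clusters with 5 members are shown first because they hold the most positive-only regions. The one whose members ranked highest lay at chr9:14583387-14650983 in galGal5, the build of the lists. Its members had fold enrichments of 3.08 to 6.21 in positive replicate 1, 3.75 to 6.37 in replicate 2 and 4.12 to 7.35 in replicate 3. The ranges of the 3 libraries overlapped, with replicate 3 reaching highest. The first 2 members, at 14583387-14583962 and 14584293-14584473, had midpoints only 708.5 bp apart. They differed in strength: the first had fold enrichments of 6.21, 5.66 and 6.18 in replicates 1, 2 and 3, and the second 3.08, 3.75 and 5.13. The nearest interval of any rank in a negative list lay 5139 bp or more from every member of this cluster. Between its first and last midpoints, the positive lists held 7, 8 and 7 intervals of any rank and the negative lists 2 and 3.

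A second cluster of 5 lay at chr4:65955948-66045409. Its strongest member, at 65977197-65978021, had fold enrichments of 5.65, 5.32 and 7.31 in positive replicates 1, 2 and 3, while another, at 66032280-66032618, reached 3.14, 3.09 and 3.71. The members of this cluster were thus of unequal strength in every positive library. Negative intervals came much closer here than on chromosome 9, with one of negative replicate 2 lying 131 bp from the first member. This cluster also had 11 other regions between its first and last midpoints, 2 of them shared by all 5 libraries.

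The third cluster of 5, at chr15:2657952-2738228, contained the member with the highest fold enrichment of any in positive replicate 2. That member, at 2695899-2696736, had fold enrichments of 4.99, 8.83 and 7.48 in positive replicates 1, 2 and 3, so replicate 1 was the low library there. Its nearest negative intervals were 9321 bp away in replicate 1 and 9331 bp away in replicate 2. The other 4 members of this cluster lay between 2.96 and 4.97 in all 3 libraries.

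Weaker members made up the remaining clusters of 5. At chr28:4469162-4593032, the longest span of all clusters, fold enrichment ran from 2.67 to 4.92 over the 5 members and 3 positive libraries. At chr18:10556863-10625713 it ran from 2.67 to 4.67. Both clusters held a member at the very end of the strong list of positive replicate 1, with ranks of 49997 and 49957, so they would lose that member with a slightly shorter list.

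Among the clusters of 4 members, the 5 with the lowest mean rank (rank 1 being the strongest) lay on chromosomes 20, 2, 15, 2 and 19. The cluster at chr20:3459321-3580584 had fold enrichments of 4.18 to 5.18, 3.95 to 5.87 and 4.45 to 5.37 in positive replicates 1, 2 and 3. Its 4 members were 35888.5 to 46350.5 bp apart, so all of its links were long ones, and a negative-only region lay between them. At chr15:9563611-9583277, by contrast, 4 members lay within 19667 bp. The cluster at chr2:85805430-85834029 spanned 28600 bp, and its members lay 801 to 4126 bp from the nearest negative interval. At chr19:1648849-1739568, 2 negative-only regions lay among the 4 members.

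The cluster at chr2:4113299-4158235 had no interval of the negative lists between its members. Its 4 members had fold enrichments of 3.44 to 4.44 in positive replicate 1, 3.96 to 5.59 in replicate 2 and 3.23 to 4.26 in replicate 3. Neither negative list held an interval of any rank between the first and the last midpoint, over a span of 44937 bp. While 3 of the members were at least 18789 bp from any negative interval, the remaining one had a negative interval 610 bp away. This cluster was the longest of the 90 (24.8%) with no negative interval between their members. These 90 had a median span of 7113.5 bp against 31883 bp for the others, and 9 of them had more than 2 members.

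Of the 10 members with the lowest mean rank over the positive libraries, 6 belonged to pairs and 1 to a cluster of 5. The highest ranked, at chr7:34190953-34191627 in a cluster of 3, had fold enrichments of 6.76, 7.22 and 10.95 in positive replicates 1, 2 and 3. Its value in replicate 3 was the highest of all members in any library, and its strongest summits in the 3 libraries fell within 11 bp of each other. The nearest negative intervals were 9504 bp away in replicate 1 and 5718 bp away in replicate 2. Its partners were weaker, at 3.11, 3.96 and 3.10 for 34147439-34147664 and 5.77, 4.67 and 4.56 for 34221901-34222277. The weaker partner had a negative interval of replicate 2 at 109 bp.

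The member at chr6:10247742-10248341 followed with fold enrichments of 6.44, 8.18 and 7.0. At chr3:108919539-108920089 the values were 7.64, 6.42 and 7.45, the first being the highest of any member in positive replicate 1. An interval of negative replicate 1 lay 123 bp from this member, whereas the nearest one of negative replicate 2 was 12162 bp away. Even among the strongest members, the 2 negative lists could thus differ widely in how near they came.

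The widest member, at chr2:40999735-41001397 (1663 bp), was listed with 5, 4 and 2 summits in positive replicates 1, 2 and 3. Its fold enrichments of 6.82, 6.41 and 6.87 were nearly equal in the 3 libraries, at ranks of 9374, 12155 and 12692. The other members in this group lay at chr1:67584723-67585326, chr1:167914570-167915254, chr4:89280960-89281532, chr2:6058034-6058575, chr2:105667565-105667994, and in the chromosome 15 cluster described above. Over all 10, the lowest fold enrichment was 4.99 and the highest 10.95, and −log10 q lay between 15.99 and 42.1.

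As a whole, clustered regions were of moderate strength in each positive library. Their median fold enrichment was 3.53 in positive replicate 1 (2.67 to 7.64), 3.96 in replicate 2 (2.80 to 8.83) and 4.13 in replicate 3 (2.97 to 10.95). Isolated positive-only regions had medians of 3.66, 3.996 and 4.37, slightly higher in each of the 3 libraries. The quartile ranges of the 2 kinds overlapped almost completely. These values chose the members, so the difference is given as a description. Regions shared by all 5 libraries were stronger, with medians of 5.54, 5.75 and 6.33.

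**Figure D2:**
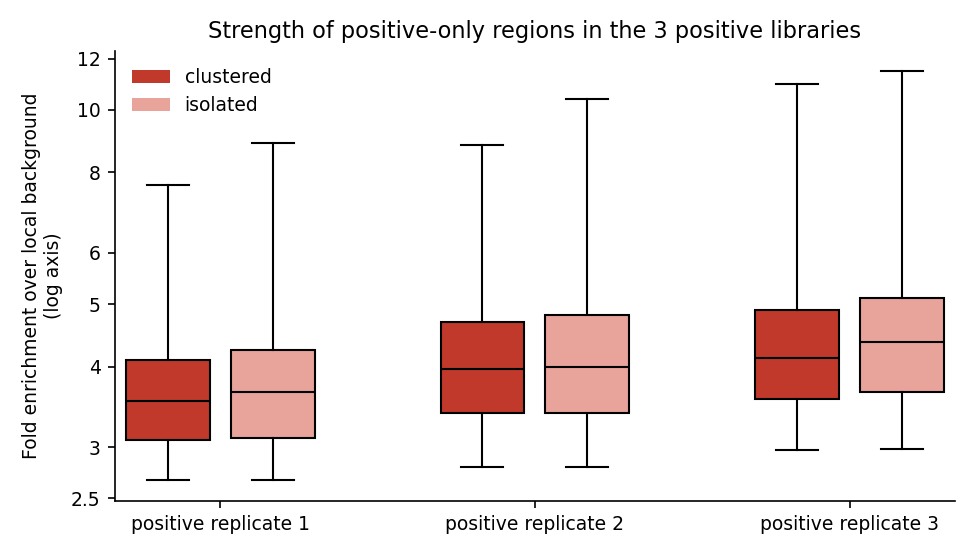
Fold enrichment over the local background (log axis) of the 834 clustered and 1773 isolated positive-only regions in each of the 3 positive libraries; boxes span the quartiles with the median as a line, and whiskers reach the lowest and highest region. In each library the clustered regions had the lower median (3.53 against 3.66, 3.96 against 3.996 and 4.13 against 4.37), and the boxes overlapped.

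By rank, the 20000 strongest intervals of positive replicates 1, 2 and 3 included 101, 174 and 127 of the 834 clustered regions. These were 12.1, 20.9 and 15.2% of them, against 14.6, 23.1 and 19.6% of isolated and 64.8, 63.0 and 63.5% of shared regions. Altogether 256 clustered regions were so in at least 1 library and 40 in all 3. For the 1773 isolated regions these counts were 624 and 109. Ranks beyond 40000 were held by 26.4, 15.2 and 20.5% of the clustered regions in replicates 1, 2 and 3. In that range were 368 clustered regions (44.1%) in at least 1 library and 22 in all 3. Isolated regions were there in at least 1 library in 40.6% of cases. Only 4 regions in 2 clusters met the same rule with lists of 20000 intervals.

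Both thresholds cut through a continuous range. The 3 members just inside the 50 kb limit were 49539.5, 49550 and 49555 bp from their nearest partner, and the 3 isolated regions just outside were 50018, 50018 and 50092 bp from theirs. The 3 members nearest to the rank limit had a weakest rank of 49978, 49991 and 49997. Regions that just missed it, listed in all positive and no negative libraries, had ranks of 50005, 50008 and 50013. Another 2182 regions were listed in every positive library and in no negative one but ranked beyond 50000 in at least 1 positive library. Of these, 175 (8.02%) lay within 50 kb of a clustered region. Among strong intervals outside the positive-only and negative-only sets, 5.27 to 5.84% per library lay as near.

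Within clusters, neighbouring members were a median of 21405.5 bp apart, with quartiles of 7899.5 and 33058.8 bp. Of the 471 neighbour pairs, 132 (28.0%) were within 10000 bp of each other and 61 were between 40000 and 50000 bp apart. Successive steps of 10000 bp held 132, 98, 92, 88 and 61 pairs, so the counts fell with distance. Each distance was taken to the next member alone, which by itself favours short ones. The fall was not compared with another placement of regions and is a description. Only 14 pairs (2.97%) had midpoints within 1000 bp, so members seldom adjoined each other.

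**Figure D3:**
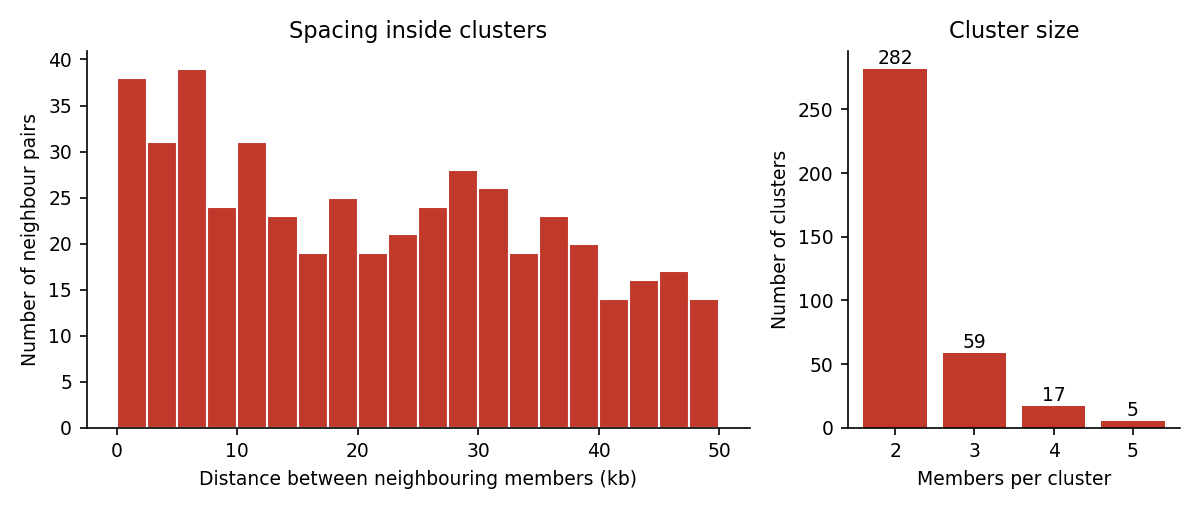
Left, the number of the 471 pairs of neighbouring members by the distance between their midpoints, in equal bins (kb) up to the 50 kb limit; right, the number of clusters by their number of members. Short distances were the most frequent, and 282 of the 363 clusters were pairs.

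Other regions usually lay between the members. In 92 clusters (25.3%) no other region had its midpoint between the first and the last member, and the median was 2 other regions. A region shared by all 5 libraries lay inside 173 clusters (47.7%). A negative-only region, of which there were 2476 in all (3.13% of regions), lay inside 32 clusters (8.82%). The first percentage is of regions and the second of clusters, which held up to 12 other regions each. The 2 are thus not comparable. Within 50 kb of a negative-only region there were 220 clustered regions (26.4%), against 402 isolated ones (22.7%).

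The mean ranks of the 2 members of a pair were nearly uncorrelated. Over the 282 pairs, Spearman's rho between the mean ranks of the partners was -0.09 with each pair entered in both orders. This is a description over pairs from the same 3 libraries.

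Distances to the nearest interval of a negative list describe how near the negative lists came to the clustered regions. The rule excludes overlap, so a gap was fixed in advance. The same distance was not measured for shared regions. For the nearer of the 2 lists the median was 3060.5 bp, with quartiles of 1378.25 and 6462 bp and a range of 64 to 49810 bp. Of the 834 clustered regions, 157 (18.8%) had a negative interval within 1000 bp and 59 of these (7.07% of the 834) within 500 bp. Isolated regions were much alike, with 18.3% within 1000 bp and 7.22% within 500 bp. Part of both sets thus flanks chromatin that was listed in negative cells too. At the far end, 33 clustered regions (3.96%) were more than 20000 bp from any negative interval. For isolated regions the median was 2832 bp, and 2.37% were beyond 20000 bp. Distances were shorter to the longer list of negative replicate 2 (median 3371 bp) than to that of negative replicate 1 (4408.5 bp).

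**Figure D4:**
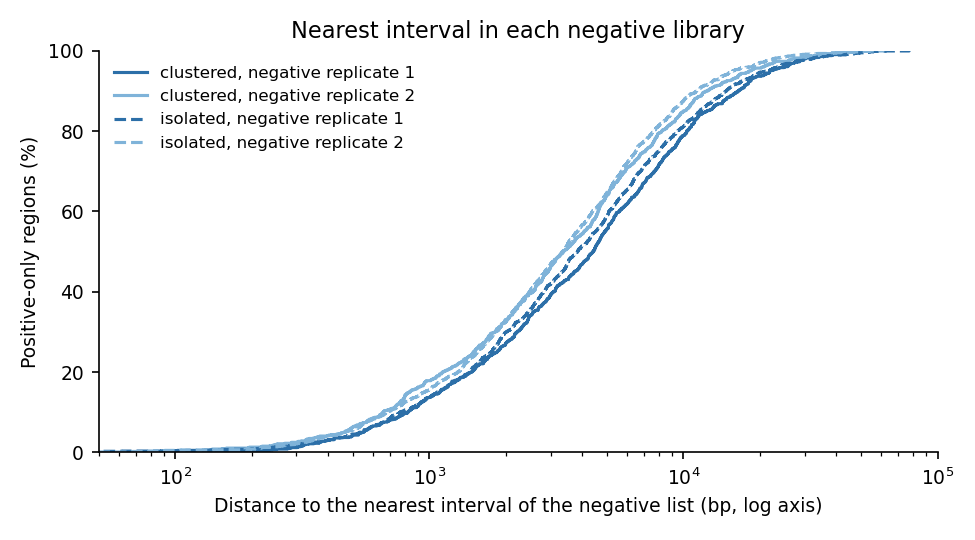
Cumulative percentage of positive-only regions (y axis) by the distance from the region to the nearest interval of any rank in the list of each negative library (bp, log axis); solid lines are the 834 clustered and dashed lines the 1773 isolated regions. Curves for negative replicate 2 lie to the left of those for replicate 1, with medians of 3371 and 4408.5 bp for the clustered regions.

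Clustered regions were narrower than shared ones, and their summits lay at nearly the same place in each positive library. The merged regions had a median width of 418.5 bp (136 to 1663 bp), close to the 424 bp of isolated positive-only regions. Single intervals at them had median widths of 365.5, 290 and 265 bp in positive replicates 1, 2 and 3, against 712, 550 and 552 bp at regions shared by all 5 libraries. In 477 of the 834 (57.2%) each positive library listed a single summit, much as in 1065 of the 1773 isolated regions (60.1%). Several summits were listed at 25.4, 22.3 and 16.9% of clustered regions in positive replicates 1, 2 and 3. At shared regions these shares were 52.4, 53.6 and 48.3%. The position of the summit was not itself used to choose members. However, the rule required intervals of all 3 positive libraries to overlap the same region, which limits how far apart their summits can lie. For each pair of positive libraries, the strongest summits at a clustered region were a median of 22 or 23 bp apart, and 77.2 to 78.7% were within 50 bp. Isolated regions gave medians of 20 and 21 bp, and shared regions likewise.

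The order of strength repeated only in part. Spearman's rho of rank over the 834 regions was 0.49 between positive replicates 1 and 2, 0.43 between 1 and 3, and 0.46 between 2 and 3. Over regions shared by all 5 libraries it was 0.87 to 0.88, and over isolated regions 0.47 to 0.52. The clustered regions held ranks of 7072 to 49997, 5521 to 49978 and 3401 to 49991 in positive replicates 1, 2 and 3. Shared regions ran from rank 1 to ranks of 49998, 49991 and 49998. The narrower range of the clustered regions is thus an observed difference at the strong end. Whether it accounts for their lower rho was not tested. All of these correlations run over regions of the same libraries. Rankings among the clustered regions are thus uncertain. The closeness of summits cannot be set against this, since the rule required overlap in all 3 positive libraries.

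Clusters occurred on 29 chromosomes, all of them numbered ones or Z. Chromosomes 1, 2, 3 and 4 held 119, 116, 72 and 59 clustered regions, together 43.9% of the set. These were 0.80 to 1.05% of the regions on those chromosomes. Higher shares were found on several smaller chromosomes, with 23 of 909 regions (2.53%) on chromosome 18, 24 of 1184 (2.03%) on chromosome 15 and 10 of 510 (1.96%) on chromosome 28. Members enter in linked groups, and these came from only 9, 9 and 3 clusters on chromosomes 18, 15 and 28. Positive-only regions of both kinds together were also frequent there, at 4.95, 4.90 and 3.92% of regions on chromosomes 18, 15 and 28. Among all regions they were 3.3%. Chromosome 10 had the lowest share of clustered regions of the 29, with 5 of 1737 regions (0.288%). There, 5 of 46 positive-only regions were clustered, against 23 of 45 on chromosome 18. Smaller chromosomes were thus not uniformly high. Chromosomes 22, 17, 25, 24 and 14 also lay below the 1.05% of all regions, at 0.590, 0.806, 0.823, 0.852 and 1.01%. Some of these shares rest on very few members, with 2 each on chromosomes 22 and 25. Chromosome Z held 35 (0.733%).

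The density of other accessible regions was slightly higher around members. Regions that were not positive-only numbered a mean of 8.97 within 50 kb of a clustered region, 8.31 within 50 kb of an isolated one and 8.10 around regions in general. Those shared by all 5 libraries made up 3.26, 3.09 and 2.91 of these. The medians of regions that were not positive-only were 9, 8 and 8. Clustered regions were kept for having another positive-only region within the same 50 kb, which can by itself favour dense places. No test was made of this difference. Negative-only regions were also clustered in part: 618 of 2476 (24.96%), in 287 clusters of at most 4, against 32.0% of positive-only regions. The 2 sets differ in size and in the number of libraries that define them, so the shares are not directly comparable.

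Shared regions in the neighbourhood gave a measure whose values did not enter the choice of members. The same ranking defined the shared regions, however, and the places were chosen by presence in one group and absence in the other. Of the 27432 regions shared by all 5 libraries, 1514 lay within 50 kb of a clustered region. In every library these ranked somewhat lower in strength than shared regions in general. Their median rank percentile, where higher means weaker, exceeded that of all shared regions by 2.22, 2.06 and 4.41 points in positive replicates 1, 2 and 3. In negative replicates 1 and 2 it did so by 4.38 and 5.99 points. The groups met at 4.4, with positive replicate 3 just above negative replicate 1. Positive libraries had a mean shift of 2.90 ± 1.31 points (SD, n = 3) and negative ones of 5.18 ± 1.14 points (SD, n = 2). Their difference, -2.29 points, was within the spread of the libraries (exact permutation test over libraries, two-sided like those that follow, p = 0.3, adjusted p = 0.343 by Benjamini-Hochberg over 8 comparisons). With 3 and 2 libraries the smallest p is 0.1, so no test here can reach 0.05.

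Around clustered negative-only regions the order was the other way round. There, 984 shared regions were shifted by 3.81, 3.80 and 3.26 points in the positive libraries and by 2.00 and 1.44 points in the negative ones. The groups did not overlap, at a difference of 1.91 points (exact permutation test, p = 0.1, adjusted p = 0.267). Around isolated positive-only regions the shifts were 2.51, 1.46 and 2.26 points in positive and 2.79 and 2.77 points in negative libraries, with p = 0.2 by the exact test (adjusted p = 0.267). All 3 comparisons use the same 5 libraries and the same shared regions, so their directions are not independent of each other. The places were also chosen by group, in opposite ways for positive-only and negative-only regions.

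The other measure counted strong intervals near clusters that belong to neither the positive-only nor the negative-only set. Of the 47367 to 47521 such intervals per library, 5.54, 5.84 and 5.47% lay within 50 kb of a clustered region in positive replicates 1, 2 and 3, and 5.27 and 5.32% in negative replicates 1 and 2. Each positive library was above both negative ones. The mean was 5.62 ± 0.20% (SD, n = 3) against 5.30 ± 0.03% (SD, n = 2), a difference of 0.319 percentage points (exact permutation test, p = 0.2, adjusted p = 0.267). Within each of the 2 library naming series the difference had the same sign, at 0.268 points in the first (1 library per group) and 0.332 points in the second. Both values used the members chosen with all 5 libraries, so their shared sign is not independent of that choice. Nor is the test, because the members were chosen by presence in positive and absence from negative lists. The same holds for the other shares near positive-only regions given below. The intervals counted here also include those with no counterpart in the other group, and no conclusion is drawn from the difference.

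These intervals were then divided by whether a list of the other group held an overlapping interval of any rank. Of those with no counterpart, 5.54, 7.20 and 5.56% were near clustered regions in the positive libraries and 4.10 and 4.67% in the negative ones. The groups did not overlap, and the difference was 1.71 percentage points (exact permutation test, p = 0.1, adjusted p = 0.267). In a positive library, an interval with no counterpart meets part of the rule that chose the members. In a negative library it does not. This comparison is therefore not independent of the choice of members, and no conclusion is drawn from it. Of those with a counterpart, the shares were 5.54, 5.70 and 5.46% against 5.35 and 5.37%, a difference of 0.209 points (exact permutation test, p = 0.2, adjusted p = 0.267). Near isolated positive-only regions the share of other intervals was 19.3, 20.0 and 19.1% in positive and 18.7 and 18.8% in negative libraries (exact permutation test, p = 0.2, adjusted p = 0.267). Near clustered negative-only regions the share of other intervals was about the same in both groups, at 3.76 ± 0.05% and 3.78 ± 0.04% (SD, n = 3 and 2; exact permutation test, p = 0.9, adjusted p = 0.9). Positive replicate 2 had the highest share in each of these comparisons around positive-only regions, and it also had the most intervals without a counterpart (4511, against 2902 to 3562 in the others).

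**Figure D5:**
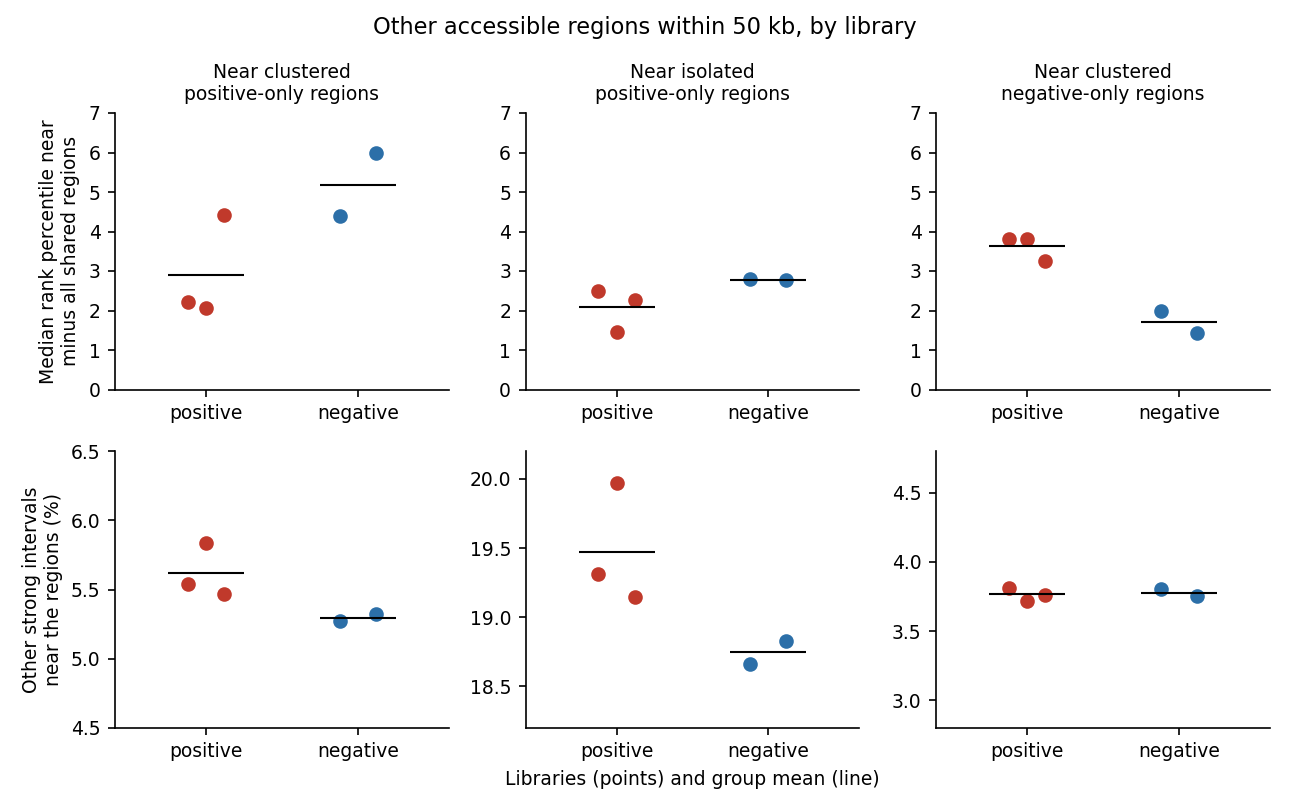
Values of the 5 libraries (points) and group means (lines) for accessible regions within 50 kb of clustered positive-only, isolated positive-only and clustered negative-only regions. Upper row, the median rank percentile of nearby shared regions minus that of all shared regions in points, higher being weaker; lower row, the percentage of other strong intervals that lay nearby, with axes that differ in position and not in scale. Around clustered positive-only regions the positive libraries had the lower mean shift (2.90 against 5.18 points) and the higher share (5.62 against 5.30%).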

How the data were processed

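Chromatin accessibility was measured by ATAC-seq in 5 libraries, 3 positive and 2 negative, grouped by their titles. Each deposited file is an interval list of 1 library. Per the submitters' processing notes, Bowtie2, MACS2 and the build galGal5 were used. Versions, the treatment of duplicates and the shift of reads for the transposase are not given in the sources used here. The deposited columns hold a fold enrichment (ratio over local background), p and q values as −log10 (smallest −log10 q 1.301, a q value of 0.05) and a whole-number score, which was not used. Values are not normalized between libraries.

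Rows of the same interval were joined and ranked by their highest fold enrichment. Intervals were merged at an overlap of 1 bp. Coordinates are 1-based. One value per library was compared by an exact two-sided permutation test over libraries, in Python 3.11.15 with numpy 2.4.6, pandas 2.3.3 and scipy 1.17.1. The search for members was tested on simulated data with planted regions. Regions named in the text are the 10 clusters with the most members (ties by mean rank) and the 10 members with the lowest mean rank; partners and extremes named besides were chosen after their values were seen. The members and comparisons were chosen with earlier results of these data known. Planned motif and gene comparisons require a galGal5 genome and were not analysed here.

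Peak names carry library names of 2 kinds, one for replicate 1 of each group and one for the other 3 libraries. This naming series may mark a batch and crosses the groups. Alternatives tried were another ranking, linking distance, list length, overlap, rule of absence, each library left out, and a replicate block. The naming series alone, the other kinds of region and the division by counterpart were added after the data were seen.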

Additional observations from a re-analysis of the deposited data

How the results depend on the processing

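The number of clustered regions (834) depended mainly on list length and on how absence was judged. It was 4 with the strongest 20000 intervals, 2194 with 70000, 3119 when absence was judged against the strongest 50000 intervals of the negative libraries only, and 497 with a linking distance of 25 kb. Over the 5 fits that each left out 1 library it ran from 1100 to 1851, since fewer conditions admit more regions. Ranking by −log10 p (969), a linking distance of 100 kb (1240), an overlap of 50% (848) and distances between edges (839) stayed within 1.5 times. Ranking by −log10 p kept 735 of the 834 regions. The shift of nearby shared regions (-2.29 points) kept its sign except with 20000 intervals, where 4 members gave 5.70 points. In the other alternatives it lay between -3.36 (ranking by −log10 p) and -1.23 points (100 kb), and without single libraries it ran from -2.59 to -1.51 points. The difference in the share of other intervals (0.319 points) was 8.49e-05 with 20000 intervals and 4 members, too small to give a direction. It kept its sign in the other alternatives, from 0.184 (25 kb) to 0.762 (70000 intervals), and ran from 0.291 to 0.636 without single libraries. The exact permutation test gave p = 0.1 for this difference at 25 kb and p = 0.6 at 70000 intervals. Each alternative chose members again by presence in positive and absence from negative lists. A kept sign of the shift or the share is therefore not independent of that choice. In the first and second naming series, with the members chosen from all 5 libraries, the shift was -2.16 and -2.76 points. Replicate numbers 1 and 2 occur in both groups, but whether they pair the libraries could not be settled with 2 pairs. Over shared regions, log2 fold enrichment of replicate 1 minus replicate 2 had a Pearson correlation of 0.219 between the groups. In both groups replicates 1 and 2 belong to different naming series, so pairing and naming series cannot be told apart by this value. The tests treated the libraries as unpaired. With a replicate block on the replicate numbers, which drops positive replicate 3, there were 1326 clustered regions. The shift was then -2.00 points and the share difference 0.636 points. The planned motif alternative was not run. Depth is unknown, which limits what a missing interval means.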
